A study of Caenorhabditis elegans with 4 samples.

Results

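The transcripts of 10 C. elegans transcription factors known for stress responses and longevity were examined in worms given rifampicin (RIF): skn-1, hsf-1, pha-4, hlh-30, atfs-1, xbp-1, atf-7, elt-2, jun-1 and fos-1. They were taken as every probe set whose annotation names one of these genes alone, which gave 22 probe sets of the 22548 tested and 10 genes of the 17118 that such probe sets represent. Total RNA came from whole worms, with 2 arrays from RIF-treated and 2 from DMSO-treated animals, the solvent control. Both groups were wild-type N2 worms collected on day 8 of adulthood from liquid medium. The medium held heat-killed E. coli OP50-AMP (OP50 carrying the L4440 vector), carbenicillin, amphotericin B and FuDr, and both groups received fresh bacteria on day 5. The labels of these arrays give no RIF dose. In a tissue field they also name a control RNAi and an idr-1 RNAi, while titles, descriptions and the stated design give RIF and DMSO, which set the groups used here.

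These factors act at different points of the cell's defence. SKN-1, the Nrf homolog, drives detoxification genes, HSF-1 drives heat-shock chaperones, ATFS-1 and XBP-1 run the unfolded protein responses of mitochondria and of the endoplasmic reticulum (ER), and ATF-7 controls immune genes downstream of the p38 MAP kinase PMK-1. JUN-1 and FOS-1 are the worm's AP-1 proteins, HLH-30 is the TFEB homolog that controls autophagy and lysosomal genes, PHA-4 is a FoxA factor that builds the pharynx and is needed for long life under dietary restriction, and ELT-2 is the GATA factor of the intestine. Most of them are regulated through splicing, phosphorylation, protein turnover or entry into the nucleus, none of which is read by an expression array.

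Values are log2 expression from Affymetrix arrays, so a difference of 1 is a 2-fold change and all differences are RIF minus DMSO. A probe set passed the study's threshold when it differed by at least 2-fold with an unadjusted p under 0.05, here from limma, and p-values were also adjusted over all 22548 probe sets by Benjamini-Hochberg. With 2 arrays a group an exact two-sided permutation test cannot give a p under 0.333, so differences were tested with limma, which shares the estimate of spread across probe sets. Leaving out an array leaves the other array of its group alone, so the disagreement within that pair no longer enters the test. Passing or not passing with an array left out is therefore no check of a difference. Transcripts that worms lack (8 yeast and TrpnX control probe sets) read between 0.44 and 1.62, and a mean in that range was taken as no detectable signal, so that a difference against it is a lower bound. The RIF arrays correlated at r = 0.981, the DMSO arrays at 0.970, and RIF with DMSO arrays at 0.961 to 0.972. The second DMSO array (DMSO 2) stood apart in RNA quality: the 5′ minus 3′ difference of control transcripts had a median of -2.16 there, against -1.28 and -1.25 on the RIF arrays and -0.99 on DMSO 1, and was lowest on DMSO 2 for 7 of 8 transcripts. Over all probe sets 257 passed the threshold with RIF higher (1.14%) and 346 with RIF lower (1.53%), or 167 and 525 when arrays were centred on ribosomal protein probe sets. An adjusted p under 0.05 was reached by 8 probe sets (0.0355%).

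jun-1 and xbp-1 were the 2 members that passed the threshold, each on 1 of its 2 probe sets and each higher in RIF worms. jun-1, which encodes the Jun subunit of AP-1, read 5.92 and 5.91 in RIF worms, against 4.99 and 4.45 in DMSO worms, on probe set 180818_at. The lower RIF array lay above the higher DMSO array by 0.92, and the RIF arrays were nearly equal. The difference was 1.196 (SE 0.23, 95% interval 0.56 to 1.83), a 2.29-fold higher level in RIF worms, with an unadjusted p of 0.00630 and an adjusted p of 0.448 from limma. The second jun-1 probe set, 188946_at, gave 5.48 and 5.69 in RIF worms, against 4.87 and 4.97 in DMSO worms. Its groups did not overlap either, but the difference of 0.66 (SE 0.16, 1.58-fold, adjusted p = 0.494) was under the fold threshold. Neither probe set carries the _s_at or _x_at suffix that Affymetrix gives to probes matching several transcripts.

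xbp-1 encodes the bZIP factor whose mRNA is spliced by the ER stress sensor IRE-1, and the arrays do not tell its spliced from its unspliced form. Probe set 190863_at read 7.63 and 7.71 in RIF worms, against 6.98 and 6.13 in DMSO worms. Both RIF values were above both DMSO values, and the DMSO values were much further apart than the RIF values. The difference was 1.12 (SE 0.33, 95% interval 0.22 to 2.02), or 2.17-fold, with an unadjusted p of 0.0260 and an adjusted p of 0.534. Its other probe set, 174139_at, had 6.502 and 6.61 in RIF worms, against 5.85 and 5.47 in DMSO worms. The groups were again apart, with a difference of 0.90 (SE 0.19, 1.86-fold, adjusted p = 0.486) that stayed under the fold threshold.

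**Figure D1:**
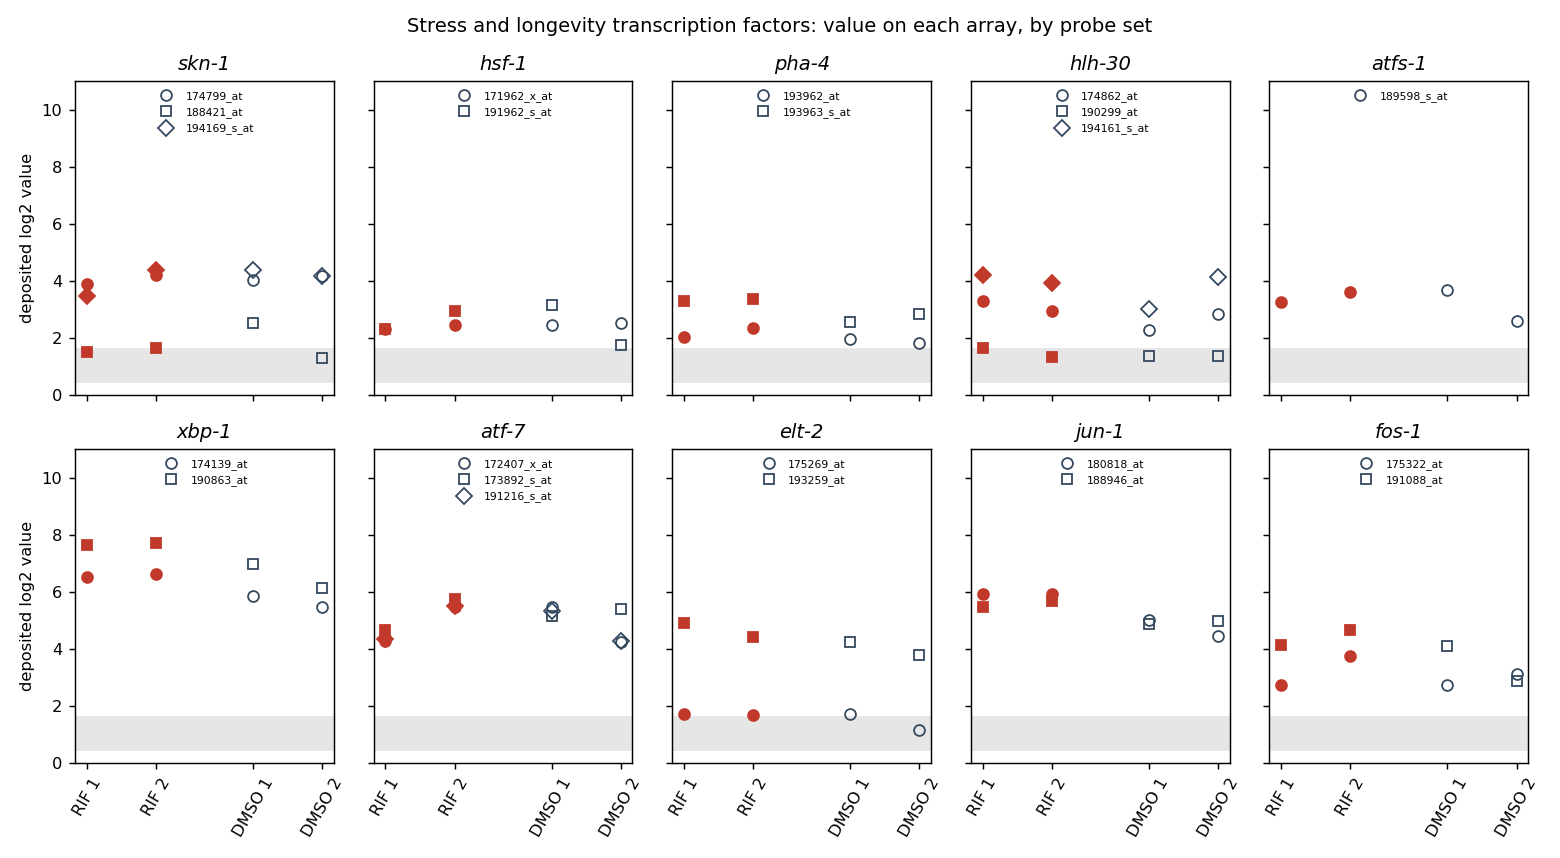
Deposited log2 value of each member probe set (vertical axis) on the 2 RIF arrays (filled, red) and the 2 DMSO arrays (open, dark), 1 panel per gene, with marker shapes for its probe sets and a grey band for the range of absent control transcripts (0.44 to 1.62). Both probe sets of jun-1 and of xbp-1 show both RIF values above both DMSO values, while the atf-7 probe sets are as far apart within a group as between groups.

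No member probe set reached an adjusted p under 0.05 by limma, where the smallest was 0.448. At an unadjusted p under 0.05 there were 5 probe sets with RIF higher, from jun-1, xbp-1 and pha-4, and 0 with RIF lower, beside 4.12% of all probe sets with RIF higher. Both RIF values lay above both DMSO values on 9 of 22 member probe sets, from 6 genes, beside 22.2% of all probe sets, and below them on 0 of 22, beside 15.7%. Differences were above 0 on 17 member probe sets and below 0 on 5, and 54.8% of all probe sets were above 0. The member median was 0.29, against 0.03 over all probe sets, and with ribosomal centring 13 of the 22 were above 0. Probe sets of the same gene share its transcripts and all 22 share the same 4 arrays, so these are descriptions of the set and not independent counts.

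**Figure D2:**
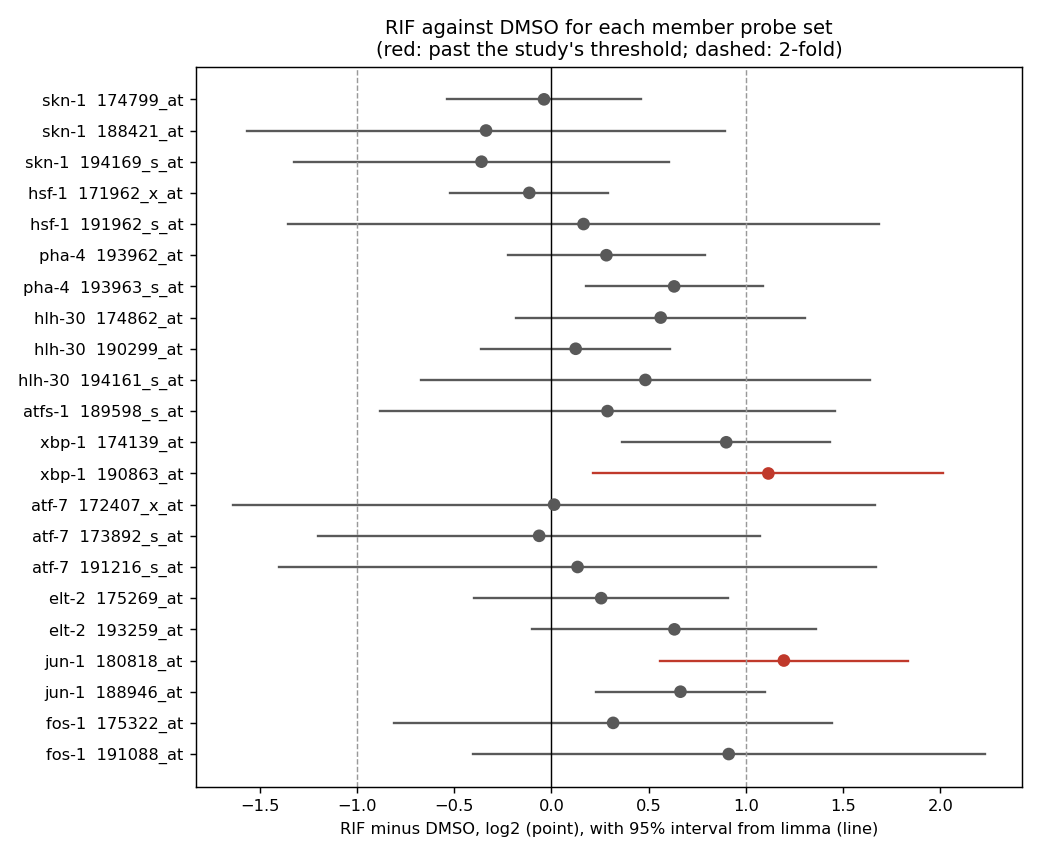
RIF minus DMSO difference on the log2 scale for each of the 22 member probe sets, with bars for the 95% interval from limma and dashed lines at a 2-fold change either way. The 5 intervals that leave out 0 belong to jun-1, xbp-1 and pha-4 and lie above 0, and 17 hold 0.

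Among the factors tied to feeding, gut and autophagy, pha-4, elt-2 and hlh-30 each had a probe set on which the groups did not overlap, without passing the threshold. pha-4 read 3.30 and 3.35 in RIF worms, against 2.56 and 2.82 in DMSO worms, on 193963_s_at. The difference of 0.63 (SE 0.17, 1.55-fold) had an unadjusted p of 0.0180 and an adjusted p of 0.510. On 193962_at pha-4 had 2.01 and 2.33 in RIF worms and 1.97 and 1.80 in DMSO worms, a gap between the groups that was small beside the spread within them (difference 0.28, SE 0.18). elt-2 gave 4.89 and 4.42 in RIF worms, against 4.25 and 3.79 in DMSO worms, on 193259_at, where the difference of 0.63 (SE 0.27, adjusted p = 0.638) came with similar spreads in both groups. Its second probe set, 175269_at, had 1.70 and 1.67 in RIF worms and 1.71 and 1.15 in DMSO worms, whose mean lay in the absent range.

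hlh-30 read 3.29 and 2.95 in RIF worms, against 2.27 and 2.85 in DMSO worms, on 174862_at, a narrow separation with a difference of 0.56 (SE 0.27, adjusted p = 0.661). On 194161_s_at the values overlapped, at 4.18 and 3.91 in RIF worms and 3.01 and 4.12 in DMSO worms, and DMSO 1 alone was low. The difference there was 0.48 (SE 0.42), and it was 1.04 without DMSO 2 and -0.07 without DMSO 1, below 0. The third hlh-30 probe set, 190299_at, had both group means in the absent range.

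fos-1, which encodes the partner of JUN-1 in AP-1 and is known for anchor cell invasion and gonad development, read 4.14 and 4.64 in RIF worms, against 4.09 and 2.87 in DMSO worms, on 191088_at. The groups were apart by 0.05, DMSO 2 was far below the other arrays, and the difference of 0.91 (SE 0.48, adjusted p = 0.680) was 0.30 without DMSO 2. On 175322_at fos-1 gave 2.72 and 3.76 in RIF worms and 2.74 and 3.11 in DMSO worms, which overlap (difference 0.32, SE 0.41).

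The remaining members, skn-1, hsf-1, atfs-1 and atf-7, overlapped between groups on all of their 9 probe sets. skn-1 had 3.89 and 4.21 in RIF worms and 4.02 and 4.16 in DMSO worms on 174799_at, and its interval of -0.54 to 0.46 lies within a 2-fold change either way. On 194169_s_at it had 3.45 and 4.36 in RIF worms and 4.36 and 4.17 in DMSO worms (difference -0.36, SE 0.35), with RIF 1 alone low. The third skn-1 probe set, 188421_at, gave 1.497 and 1.63 in RIF worms, a mean in the absent range, and 2.51 and 1.29 in DMSO worms.

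hsf-1 gave 2.30 and 2.44 in RIF worms and 2.44 and 2.53 in DMSO worms on 171962_x_at, with an interval of -0.52 to 0.29 that also stays within 2-fold. Its other probe set, 191962_s_at, had 2.31 and 2.92 in RIF worms and 3.16 and 1.75 in DMSO worms, a wider spread within the DMSO group than between groups. atfs-1, whose import into mitochondria sets the mitochondrial response, had 3.24 and 3.61 in RIF worms and 3.69 and 2.59 in DMSO worms on its only probe set (difference 0.29, SE 0.43).

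atf-7 had the largest SE of any member. On 172407_x_at it read 4.28 and 5.45 in RIF worms and 5.45 and 4.25 in DMSO worms, and on 191216_s_at 4.34 and 5.50 in RIF worms and 5.31 and 4.27 in DMSO worms. RIF 1 and DMSO 2 were low and the other two arrays high on both. The third atf-7 probe set, 173892_s_at, gave 4.66 and 5.75 in RIF worms and 5.14 and 5.40 in DMSO worms, with RIF 1 low again. Differences were 0.01, 0.13 and -0.06 with SEs of 0.60, 0.56 and 0.41, so their 95% intervals reach past a 2-fold change both ways. All 3 atf-7 probe sets carry the suffix for probes matching several transcripts, as do 9 of the 22 member probe sets, so transcripts of other genes may add to them.

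DMSO 2 was the lowest of the 4 arrays on 12 of 22 member probe sets, beside 24.2% of all probe sets, and RIF 1 was below RIF 2 on 16, beside 49.8%. Without DMSO 2 the difference of jun-1 180818_at was 0.93 and that of xbp-1 190863_at was 0.69, both then under the fold threshold and both still above 0. Without DMSO 1 they were 1.47 and 1.54, with xbp-1 174139_at at 1.09 and fos-1 191088_at at 1.52. Leaving out either RIF array kept jun-1 at 1.19 and 1.201 and xbp-1 at 1.15 and 1.08, with unadjusted p-values above 0.05. The member median was 0.16 without DMSO 2 and 0.52 without DMSO 1. Whether the RNA quality of DMSO 2 has a part in these differences was not tested.

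**Figure D3:**
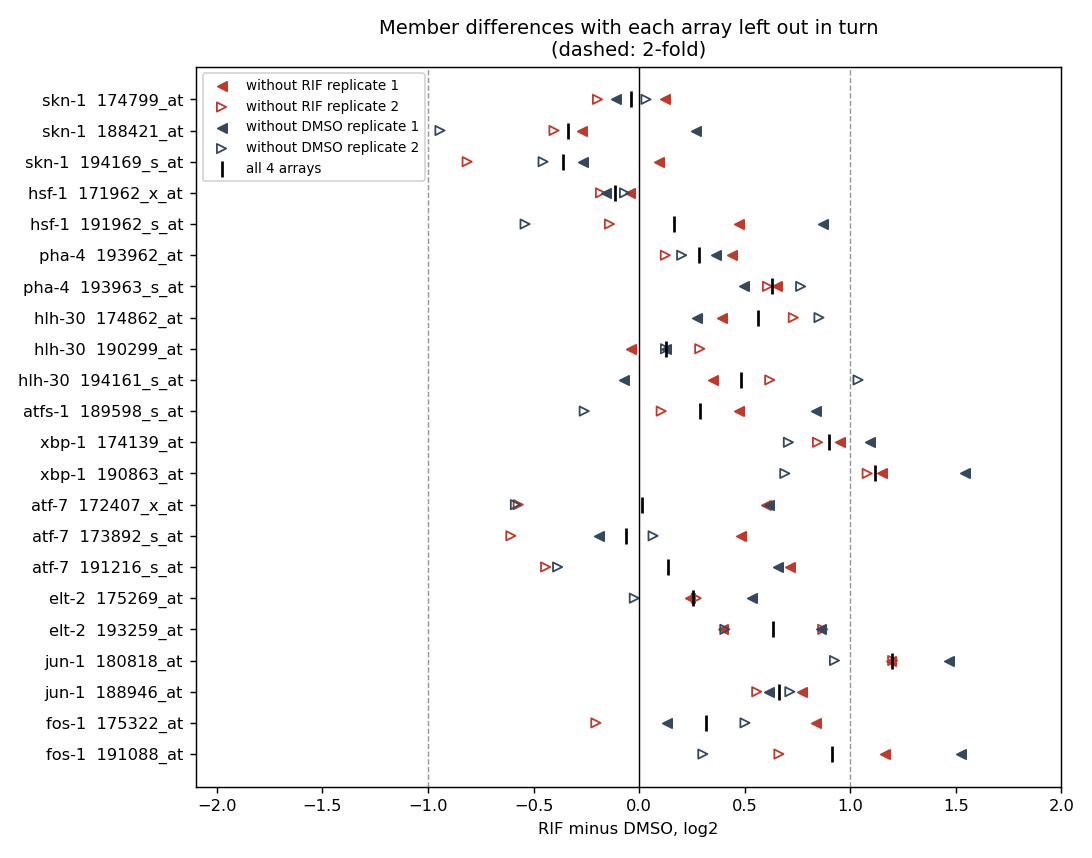
RIF minus DMSO difference on the log2 scale for the member probe sets with all 4 arrays and with each array left out in turn, with the dashed line at a 2-fold change. jun-1 180818_at stays between 0.93 and 1.47 and xbp-1 190863_at between 0.69 and 1.54, and the highest value of both is the one without DMSO 1.

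Genes known to act with or downstream of these factors were read from lists, at 1 probe set per gene, the one with the highest mean level. The lists around each member, without the members themselves, held 185 genes, of which 171 were measured. The lists of other stress and longevity factors, of other bZIP factors and of tissue markers were not part of this count. Of the 171, 6 passed the threshold with RIF higher and 14 with RIF lower, beside 1.27% and 1.55% of all genes taken at 1 probe set. The lists were chosen with earlier results of these data known, and 8 of the 14 lower genes came from the atf-7 targets. These counts are therefore not independent evidence of a difference from those shares. Without RIF 1 the lower count was 9, and the higher count was 11 without DMSO 1, 10 without DMSO 2 and 10 without RIF 2. These worms were measured whole, so fewer cells of a type and less RNA per cell cannot be told apart for any gene here.

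AP-1's upstream kinases and targets were mostly higher without passing the threshold: 13 of 15 were above 0, the groups were apart on 7, all with RIF higher, beside 22.9% of all genes taken at 1 probe set, and the median was 0.33. Both means lay in the absent range for 5 of the 15, and 1 mean for 2 more. Of the 7 that were apart, jkk-1 and shc-1 had both means in that range, and jnk-1 and zmp-1 had 1. kgb-1, a JNK-like kinase that phosphorylates FOS-1, had 3.56 and 3.59 in RIF worms, against 2.94 and 2.96 in DMSO worms. Its groups were tight and apart, with a difference of 0.63 (SE 0.14, adjusted p = 0.486). jnk-1, the stress kinase JNK, had a mean of 2.20 in RIF worms and of 1.59 in DMSO worms, the second in the absent range, and did not pass. Its dimmer probe set differed by 0.41, also with the DMSO mean in the absent range, and did not pass. kreg-1, a target of KGB-1 and FOS-1 named here after its values were seen, read 6.95 and 7.37 in RIF worms, against 3.86 and 6.14 in DMSO worms. That difference of 2.16 had a wide SE of 0.82 and an unadjusted p of 0.0564 by limma. It was 1.02 without DMSO 1 and 3.30 without DMSO 2. With all 4 arrays kreg-1 passed under an intensity trend with a robust prior (unadjusted p = 0.0192), a replicate block (0.0275), a filter on low values (0.0380) and ribosomal centring (0.0438). It did not pass in the unpaired t-test per probe set, after quantile normalization, with centring on the array median or without either RIF array.

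xbp-1's targets were above 0 for 15 of 17 genes, with a median of 0.19, and 1 passed the threshold. This was ckb-2, a choline kinase known to be induced in the ER stress response, with 6.40 and 6.93 in RIF worms, against 4.78 and 4.81 in DMSO worms (difference 1.88, SE 0.23, adjusted p = 0.289). hsp-4, the inducible BiP chaperone, had 7.17 and 8.00 in RIF worms and 7.57 and 7.30 in DMSO worms, which overlap. Without DMSO 2 the median of these targets was 0.02, with 10 above 0, and with ribosomal centring 0.03. Of the 6 partners of xbp-1, 0 passed the threshold. ire-1, the splicing enzyme itself, differed by -0.52 (SE 0.20, adjusted p = 0.604) on its brighter probe set and by -0.38 (SE 0.39) on its dimmer one.

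Among the pathway lists, the largest changes stood in those of atf-7 and hsf-1, whose own transcripts did not pass the threshold. Of 12 measured genes listed from general knowledge as atf-7 targets, 8 fell and 0 rose. The median was -1.90, or -1.59 with the 4 genes that had 1 mean in the absent range taken at their bound. This list holds genes already known to have fallen in these arrays, so the count is not independent evidence of its direction. The 8 that fell are dod, lys and clec genes. In the same list irg-4, irg-5 and irg-6 differed by -0.22, -0.66 and -0.02 and did not pass. Both group means lay in the absent range for irg-4 and irg-6, as did the RIF mean for irg-5. dod-24, a CUB-domain gene repressed by DAF-16, read 2.51 and 2.06 in RIF worms, against 7.83 and 7.92 in DMSO worms (difference -5.59, SE 0.21, adjusted p = 0.0302). dod-22, of the same gene family, read 1.31 and 0.93 in RIF worms, values within the absent range, against 4.75 and 4.78 in DMSO worms, so its level was at least 8.90-fold higher in DMSO worms when the RIF arrays are set to the top of that range (adjusted p = 0.0802 for the measured values). lys-2, a lysozyme, had 3.88 and 5.36 in RIF worms, against 8.75 and 7.96 in DMSO worms (difference -3.74, SE 0.60, adjusted p = 0.377). sysm-1, a reporter gene of this pathway, had 0.69 and 0.95 in RIF worms and 1.39 and 4.45 in DMSO worms, with DMSO 2 alone high, and passed only without DMSO 1 (-3.63). Of the 8 upstream genes 7 were above 0 with a median of 0.46 and 0 passed. pmk-1 differed by 0.08. Its activating kinase sek-1, named after its values were seen, differed by 0.83 (unadjusted p = 0.0378 by limma, and 1.14 without RIF 1).

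Of 10 measured hsf-1 targets 2 fell and 0 rose, with a median of -0.52, or -0.40 with the 1 gene that had a mean in the absent range at its bound, and 1 fell without DMSO 2 (median -0.19) and 1 without RIF 1. hsp-70, a heat-inducible cytosolic chaperone, read 4.93 and 4.85 in RIF worms, against 8.23 and 8.19 in DMSO worms. The arrays of each group agreed closely, and the difference was -3.32 (SE 0.14, adjusted p = 0.0404), a level 10.02-fold higher in DMSO worms, on a probe set with the _s_at suffix. hsp-16.2, a small heat-shock protein, had 6.93 and 6.49 in RIF worms, against 7.61 and 8.63 in DMSO worms (difference -1.41, SE 0.41, adjusted p = 0.533). Its difference was -0.90 without DMSO 2, where it no longer passed, as it did not without either RIF array. Of the 10 targets, hsp-1 (0.34), hsp-90 (0.31) and dnj-12 (0.67) had the groups apart with RIF higher, beside 22.9% of all genes. The groups were apart with RIF lower on 4 of the 10, beside 15.7% of all probe sets. HSF-1's inhibitor hsb-1 differed by -0.09 on its brighter probe set. On its dimmer one the difference was -0.23, with the groups apart, and 0 of 5 partners passed.

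**Figure D4:**
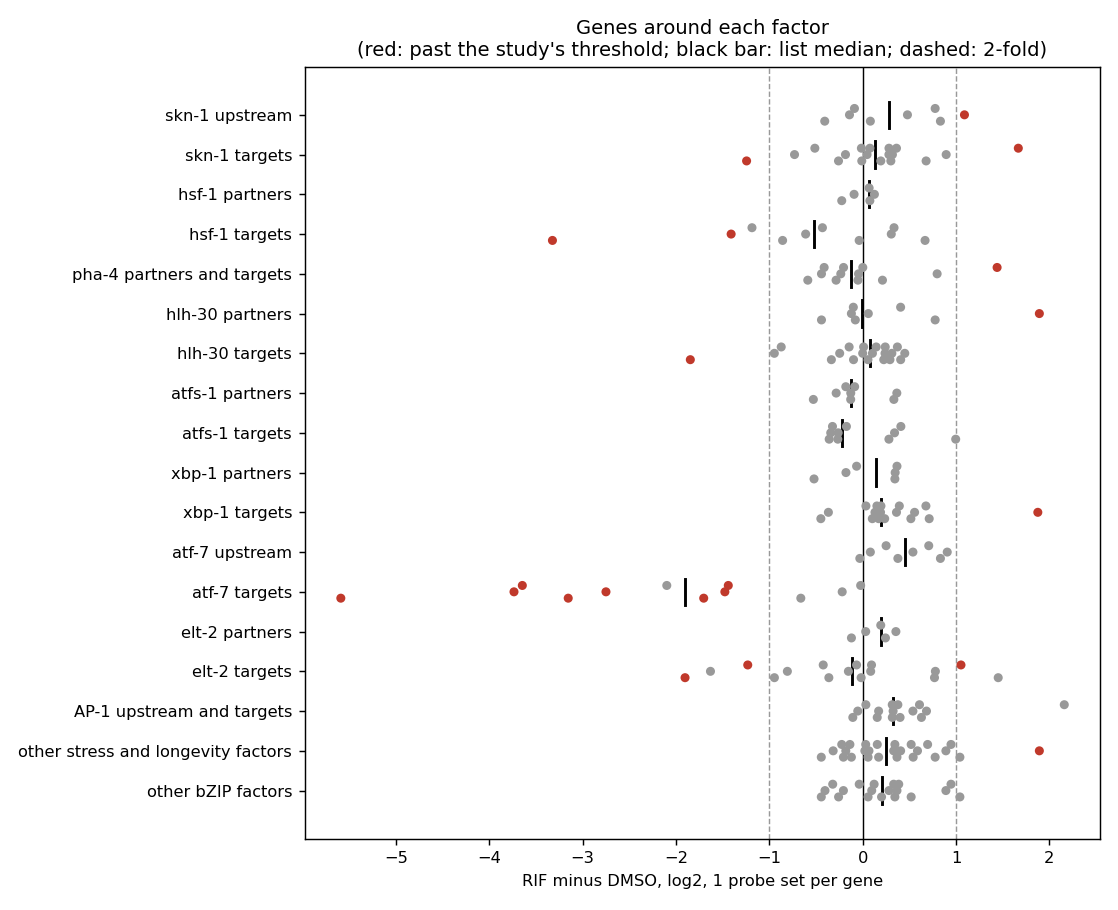
RIF minus DMSO difference on the log2 scale for each measured gene of the lists, 1 row per list, with red points for genes past the study's threshold and black bars for list medians. atf-7's targets are all below 0 and reach -5.59 at dod-24, hsf-1's reach -3.32 at hsp-70, and the medians of the lists plotted other than these lie between -0.22 and 0.46.

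The lists of skn-1 held 2 genes that rose and 1 that fell. sgk-1, a kinase that acts on SKN-1 and DAF-16, had 5.87 and 5.64 in RIF worms, against 4.68 and 4.65 in DMSO worms (difference 1.09, SE 0.16, adjusted p = 0.338), and it was under the fold threshold without RIF 1 (0.97) and with ribosomal centring (0.92). gst-5, a glutathione transferase, had 5.66 and 4.62 in RIF worms, against 3.18 and 3.77 in DMSO worms (difference 1.67, SE 0.44), and did not pass without DMSO 1 (1.37) or RIF 1 (1.15). gst-10 read 0.96 and 1.23 in RIF worms, values within the absent range, against 1.74 and 2.93 in DMSO worms, a level at least 1.65-fold higher in DMSO worms. It passed the threshold on its measured values, and did not pass without DMSO 2 (-0.65) or without either RIF array. The SKN-1 reporter gst-4 was highest on RIF 1 at 6.10 and lowest on RIF 2 at 2.98, with 5.01 and 3.47 in DMSO worms, so its spread within a group exceeded the difference of 0.30. gcs-1, the glutathione synthesis enzyme, differed by 0.05 (-0.27 on its dimmer probe set) and wdr-23, the repressor of SKN-1, by -0.09.

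hlh-30's partners and targets had a median of -0.01 over 8 genes and 0.08 over 20. mdl-1, a Mad-like protein of the Myc network, rose to 7.58 and 6.85 in RIF worms, against 5.70 and 4.95 in DMSO worms (difference 1.89, SE 0.39, adjusted p = 0.466), and was 1.53 without RIF 1, where it did not pass. lipl-5, a lysosomal lipase, fell to 5.52 and 4.71 in RIF worms, against 7.46 and 6.46 in DMSO worms (difference -1.85, SE 0.47), with -1.35 without DMSO 1 and -1.44 without RIF 2, where it did not pass. The autophagy gene lgg-1 differed by 0.23, and lipl-3 had both group means in the absent range. The HLH-30 antagonist mxl-3 differed by 0.41 with a wide SE of 0.74 (1.45 without DMSO 1 and -0.63 without DMSO 2).

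pha-4's list had a median of -0.13, with 4 of 12 genes above 0 and 8 below. It held 1 gene that rose, sod-4, an extracellular superoxide dismutase, with 7.31 and 7.08 in RIF worms, against 5.59 and 5.92 in DMSO worms (difference 1.44, SE 0.20, adjusted p = 0.334). smk-1, the PHA-4 cofactor, differed by 0.00 on its brightest probe set and by -0.61 and 0.15 on the other two. elt-2's targets had a median of -0.11, with 6 of 16 above 0 and 10 below. They held gtl-1, which rose by 1.05 (SE 0.35), and cpr-1 and vha-6, which fell. cpr-1, a gut cathepsin B protease, had 6.96 and 6.796 in RIF worms, against 8.44 and 9.12 in DMSO worms (difference -1.90, SE 0.28, adjusted p = 0.341). vha-6, an intestinal proton pump subunit, fell by 1.23 (SE 0.41) and did not pass without DMSO 1 (-0.72) or either RIF array. gtl-1 did not pass without RIF 1 (0.60), DMSO 1 or DMSO 2. elt-7, the paralog of elt-2, differed by 0.24 and ges-1, a gut esterase, by -0.07.

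atfs-1's partners and targets included 0 genes past the threshold among 8 and 10 measured, with medians of -0.13 and -0.22. hsp-6, the mitochondrial HSP70, differed by -0.34 (SE 0.26) on its brighter probe set and -0.90 (SE 0.43) on its dimmer one. hsp-60, the mitochondrial chaperonin, differed by 0.28 (SE 0.24) and dve-1, a homeobox cofactor of this response, by -0.18 (SE 0.29) on its brighter probe set and 0.37 (SE 0.18) on its dimmer one.

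Other stress and longevity factors, 26 measured, had a median of 0.25, and of these mdl-1 alone passed the threshold, while daf-16 differed by -0.23 (SE 0.31) on its brightest probe set. Its other probe sets gave 0.12, -0.02 and 0.64, the last with the groups apart and an unadjusted p of 0.0482, but with a DMSO mean in the absent range. The 19 other bZIP factors measured, many of which are also among those 26, had a median of 0.20, with 0 past the threshold. Of these, zip-10 (difference 1.04, unadjusted p = 0.0538 by limma, and 1.55 without DMSO 2) was named after its values were seen. With all 4 arrays zip-10 passed under the replicate block (0.0330), the trend with a robust prior (0.0337), the filter on low values (0.0455) and quantile normalization (0.0478). It did not pass in the unpaired t-test per probe set, with centring on the array median or on ribosomal protein probe sets, or without DMSO 1 or either RIF array. zip-2 (difference 0.89), named likewise, did not pass and was 1.42 without DMSO 1. Among markers of the tissues in which these factors act, 9 intestinal genes had a median of 0.08 and the list's mean level was 4.97 and 4.87 in RIF worms, against 5.13 and 4.69 in DMSO worms. All 9 are also in the elt-2 lists, and some of the pharyngeal genes are in pha-4's list, so these values are not separate. The 8 pharyngeal genes had a median of 0.10, and 9 neuronal genes had 0.47, with 8 of them apart and higher, beside 22.9% of all genes. The mean level of the neuronal list was 5.47 and 5.15 in RIF worms, against 5.00 and 4.81 in DMSO worms. Body wall muscle markers had a median of -0.56, with 3 of 8 past the threshold and lower, and mean levels of 3.69 and 3.28 in RIF worms, against 4.25 and 4.22 in DMSO worms. Of the 3, unc-54 did not pass without DMSO 1 (-1.50), DMSO 2 (-2.24) or RIF 2 (-1.22), nor myo-3 without RIF 1 (-0.98), neither passed in the unpaired t-test per probe set, and myo-3 had its RIF mean in the absent range. Of 7 epidermal markers 2 fell, with mean levels of the list of 3.69 and 3.24 in RIF worms, against 4.80 and 4.59 in DMSO worms. Of the 2, col-140 (difference -3.40, SE 0.55) passed in every setting run. col-19 (difference -3.77, SE 0.83) did not pass without RIF 2 (-3.01) or in the unpaired t-test per probe set. Germ line markers had a median of -0.45 with 0 of 10 past the threshold, and mean levels of 6.88 and 7.26 in RIF worms, against 7.55 and 7.45 in DMSO worms. The groups were apart with RIF lower on 6 of the 10 germ line, 6 of the 8 muscle and 3 of the 7 epidermal markers, beside 15.7% of all probe sets. Markers above the absent range numbered 8 of 9 for intestine, 6 of 8 for pharynx, 3 of 7 for sperm and 4 of 8 for embryos. The part of these tissue values in the differences of the members was not tested.

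The 3 probe sets whose centred profiles over the 4 arrays lay nearest to that of jun-1 180818_at, by root mean square distance, were those of apm-1 (0.0529), T19C3.4 (0.0843) and skr-19 (0.0940). They differed by 1.17, 1.10 and 1.37 between RIF and DMSO worms. apm-1 encodes a subunit of a clathrin adaptor and skr-19 a Skp1-related protein, and 4 arrays give a measure of likeness only.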

How the data were processed

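RNA was hybridised to Affymetrix C. elegans arrays, and the authors deposited log2 values of 22625 probe sets for 4 arrays. The submitters' processing notes name RMA and Affymetrix Expression Console, without versions in the sources used here, and GeneSpring GX 11.1 with default settings is the array software given in the published methods. The log base is that of RMA. The deposited log2 values were used as they stand, without the 77 control probe sets, and 0 columns were left unmapped. Probe sets were named from GEO's platform annotation: 20766 name 1 gene (20701 matched to a current symbol), 887 several and 895 none. Differences were fitted in limma 3.58.1 (R 4.3.3), with Benjamini-Hochberg adjustment over 22548 probe sets. The threshold of 2-fold and unadjusted p under 0.05 follows the study. Replicates are independent biological samples per the labels. Members and gene lists were chosen with earlier results of these data known. Genes were named by rule: all members, up to 3 genes per list past the threshold with the largest differences, and well-known pathway genes. Alternatives were an unpaired t-test per probe set (named in the methods for experiments other than survival, not for the arrays by name), a trend with a robust prior, a replicate block, 3 scalings, a filter on low values, a 1.5-fold threshold and leaving out each array. The fit was tested on simulated data.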

Additional observations from a re-analysis of the deposited data

How the results depend on the processing

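With 2 arrays a group, a single array could decide a call, and no member reached an adjusted p under 0.05 in any setting run. An unpaired t-test per probe set left 108 probe sets past the threshold with RIF higher and 130 with RIF lower, 1 member probe set (jun-1 180818_at), and 3 pathway genes higher and 8 lower. Centring on ribosomal protein probe sets gave a median of -0.14 over all probe sets, against 0.03 as deposited, with 167 probe sets higher and 525 lower, 1 member higher and xbp-1 190863_at at 0.95. At 1.5-fold, 5 member probe sets were higher, and 0 members passed with RIF lower in any setting. These 5 are the probe sets of jun-1, xbp-1 and pha-4 already given as under an unadjusted p of 0.05 by limma. The share of all probe sets passing at 1.5-fold was not counted. Same-numbered arrays deviated together weakly (correlation of 0.103 over probe sets), and the labels give the numbers no meaning beyond naming replicates. A fit with the replicate number as a block gave 305 probe sets higher, 379 lower and the same 2 member calls.

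Some differences near 0 changed sign with the scaling. With ribosomal centring hsf-1 191962_s_at was -9e-04, hlh-30 190299_at -0.041, atf-7 172407_x_at -0.15, atf-7 191216_s_at -0.032, gcs-1 -0.12, smk-1 -0.17, hsp-4 -0.014 and pmk-1 -0.085. With centring on the array median atf-7 172407_x_at was -0.045, gcs-1 -0.012 and smk-1 -0.058. After quantile normalization skn-1 174799_at was 0.028 and atf-7 173892_s_at 0.0077. The cause was not tested.

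Leaving out each array in turn gave 205 to 464 probe sets higher and 304 to 735 lower, 0 to 4 member probe sets higher, and 5 to 11 pathway genes higher and 9 to 15 lower. These differences changed sign within their range. For skn-1, 174799_at ran from -0.20 to 0.12, 188421_at from -0.94 to 0.27 and 194169_s_at from -0.81 to 0.095. For hsf-1 and hlh-30, 191962_s_at ran from -0.54 to 0.87, 190299_at from -0.037 to 0.29 and 194161_s_at from -0.070 to 1.04. atfs-1 ran from -0.26 to 0.84, elt-2 175269_at from -0.023 to 0.53 and fos-1 175322_at from -0.21 to 0.84. For atf-7, 172407_x_at ran from -0.59 to 0.61, 173892_s_at from -0.61 to 0.48 and 191216_s_at from -0.44 to 0.71. Among pathway genes, wdr-23 ran from -0.73 to 0.55, gst-4 from -1.26 to 1.86, gcs-1 from -0.64 to 0.73, hsb-1 from -0.28 to 0.097, smk-1 from -0.45 to 0.45, mxl-3 from -0.63 to 1.45, lipl-3 from -0.097 to 0.095 and dve-1 from -0.46 to 0.096. hsp-60 ran from -0.010 to 0.57, hsp-4 from -0.26 to 0.57, pmk-1 from -0.24 to 0.40, elt-7 from -0.026 to 0.51, ges-1 from -0.54 to 0.40 and daf-16 from -0.60 to 0.15.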
